A study of Mus musculus with 18 samples.

Results

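Among the protein-coding genes that embryoid bodies of the Mettl3 line expressed, 179 had no count at all once the knockout cells were grown with the demethylase inhibitor GSK-J4. They were selected on measured values, as protein-coding genes with 0 counts summed over the 3 GSK-J4 libraries and a mean of at least 5 CPM in both the 3 control and the 3 knockout libraries of that line. CPM is a gene's count scaled to a library of 1000000 counts. Of 54446 genes in each library, 21918 were protein-coding, 9980 reached 5 CPM in both groups, and 186 of these (1.86%) had 0 counts with GSK-J4. The Wnt pathway genes Nkd2, Sfrp2, Tcf7, Rspo1 and Apcdd1 and the collagens Col9a3 and Col25a1 were left out by family, which leaves 179. None of the 23 HOX genes at that level had 0 counts. Since the GSK-J4, control and knockout libraries of the Mettl3 line chose these genes, their values there are described without a test. Levels and contrasts in the Mettl14 line did not enter the rule.

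The series holds 18 RNA libraries of mouse embryoid bodies, which are clumps of differentiating embryonic stem cells in suspension, made from C57BL/6 cells after 7 days of differentiation. The 6 groups of 3 were Mettl3 control, Mettl3 conditional knockout (CKO) with DMSO, Mettl3 CKO with 5 µM GSK-J4, Mettl14 control, Mettl14 CKO with DMSO and Mettl14 CKO with 5 µM GSK343. All cells had been kept as stem cells with LIF, CHIR99021 and PD0325901 before plating. DMSO is stated for the CKO groups and not for the controls. A comparison of CKO with control therefore cannot separate the knockout from a possible vehicle difference. No control received an inhibitor, and the labels give neither the deleted exons, the Cre, nor whether replicates were separate cultures. The spread between replicates may therefore be technical.

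METTL3 and METTL14 form the complex that writes m6A, a methyl mark on adenosines of mRNA. H3K27me3 is the repressive histone mark that EZH2 writes within Polycomb repressive complex 2 and that the demethylases KDM6A and KDM6B remove. GSK343 blocks EZH2, and GSK-J4 enters cells as an ester and blocks the demethylases. Genes of mesenchyme, bone and neural crest are among those known to carry H3K27me3 in stem cells, and some lose it when they are switched on during differentiation.

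The 3 libraries with GSK-J4 differed from the other 15 in ways that reach beyond these genes. They held 3395675, 8289423 and 4850897 counts, against 17544904 to 32540164 in the other Mettl3-line libraries and 721853 to 20714764 in the Mettl14 line. Mitochondrial mRNA made up 0.112 to 0.244% of their counts, against 1.29 to 3.24% elsewhere. Summed CPM of 16 fibroblast and mesenchyme markers was 3260 to 4390 with GSK-J4, against 17800 to 19200 in CKO and 12500 to 17200 in control, and Fap was the marker at 0. Summed CPM of 10 endothelial markers was 43.2 to 62.7 with GSK-J4, against 17.1 to 24.0 in CKO. Different genes carried this sum in the GSK-J4 replicates 1, 2 and 3. Pecam1 had 24.4, 6.51 and 0 CPM and Kdr 9.42, 25.2 and 39.0, while Emcn and Cldn5 were at 0. For 11 cardiac and skeletal muscle markers the sum was 30.6 to 68.3 against 5.07 to 9.69, and for 12 neural markers 88.4 to 159 against 214 to 262. The part these differences play in the missing counts was not tested. In bulk RNA, fewer cells of a type and less RNA per cell cannot be told apart. Kdm6a had a mean of 35.96 CPM with GSK-J4 against 32.02 in CKO, and Kdm6b a mean of 116 against 96.9. Mettl3 itself had 20.3, 33.6 and 18.6 CPM in control, 25.9, 6.90 and 18.1 in CKO and 8.54, 28.6 and 13.6 with GSK-J4. Mettl14 had 16.8 to 18.1 CPM in its controls, 15.3 to 22.9 in its CKO and 12.1 to 17.1 with GSK343. Counts over a whole gene check nothing about a deleted part.

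The promoters of the members at the highest levels that the promoter table holds are shown because they belong to the genes with the largest bounds below. They are from RefSeq on GRCm38.p6, run from 250 bases before the start of transcription to 50 after it, and are written 5′ to 3′ on the gene's strand with CpG dinucleotides in capitals. Aspn lies on the plus strand (chr13:49544193-49544492), Eml1 on the plus strand (chr12:108370903-108371202) and Lrrc15 on the minus strand (chr16:30283205-30283504).
Aspn: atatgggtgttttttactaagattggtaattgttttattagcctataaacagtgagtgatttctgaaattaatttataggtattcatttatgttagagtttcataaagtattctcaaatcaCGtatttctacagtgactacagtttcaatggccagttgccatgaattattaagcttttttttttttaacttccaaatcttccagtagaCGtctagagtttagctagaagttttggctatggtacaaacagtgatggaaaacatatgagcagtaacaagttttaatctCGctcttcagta
Eml1: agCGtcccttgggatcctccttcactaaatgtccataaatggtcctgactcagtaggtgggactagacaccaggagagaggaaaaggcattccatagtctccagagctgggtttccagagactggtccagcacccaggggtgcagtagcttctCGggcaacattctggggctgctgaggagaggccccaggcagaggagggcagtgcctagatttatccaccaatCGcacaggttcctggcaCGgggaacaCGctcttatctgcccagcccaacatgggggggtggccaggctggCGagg
Lrrc15: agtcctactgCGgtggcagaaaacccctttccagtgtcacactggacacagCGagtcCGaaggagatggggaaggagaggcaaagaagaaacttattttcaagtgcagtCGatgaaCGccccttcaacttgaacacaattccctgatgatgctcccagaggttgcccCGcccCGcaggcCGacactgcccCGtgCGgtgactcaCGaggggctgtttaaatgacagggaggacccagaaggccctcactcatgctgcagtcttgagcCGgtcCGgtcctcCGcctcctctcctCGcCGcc
The letters CG occurred 3 times in the Aspn promoter, 6 times in that of Eml1 and 16 times in that of Lrrc15. They occurred at least once in 94.6% of the 32851 promoters of the table, with a median of 7. Only 139 of the 179 members (77.7%) had an entry, under the 80% set for a comparison of promoter content, so such a comparison is void.

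Depth set a low limit on what could be seen. At the summed depth of 16535995 counts, a gene at 5 CPM would have given 83 counts, and 3 counts over the 3 libraries correspond to 0.181 CPM. The members would have given 84 to 1165 counts at their CKO level. Taking 3 counts as the floor, the CKO mean was at least 27.8-fold higher than with GSK-J4 for Chrd, the lowest bound, and at least 388-fold higher for Aspn, the highest. Few genes sat near 0. Among the expressed genes 12 had 1 count over the GSK-J4 libraries, 8 had 2, 4 had 3 and 60 had 4 to 9. These floors and counts cover counting error only.

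Genes just inside and just outside the limits had like levels. Otulinl, with 5.03 CPM in control and 6.26 in CKO, Chrd with 6.63 and 5.05, and Cend1 with 6.38 and 5.08 were the lowest members. Ctnna2 (4.96 and 5.98 CPM), Thnsl2 (6.83 and 4.95) and Vps37d (5.64 and 4.93) also had 0 counts with GSK-J4 and fell below the minimum. Tmem86a, at 16.6 and 23.4 CPM, Bmf, at 16.8 and 17.7, and Abat, at 6.79 and 13.6, each had 1 count.

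**Figure D1:**
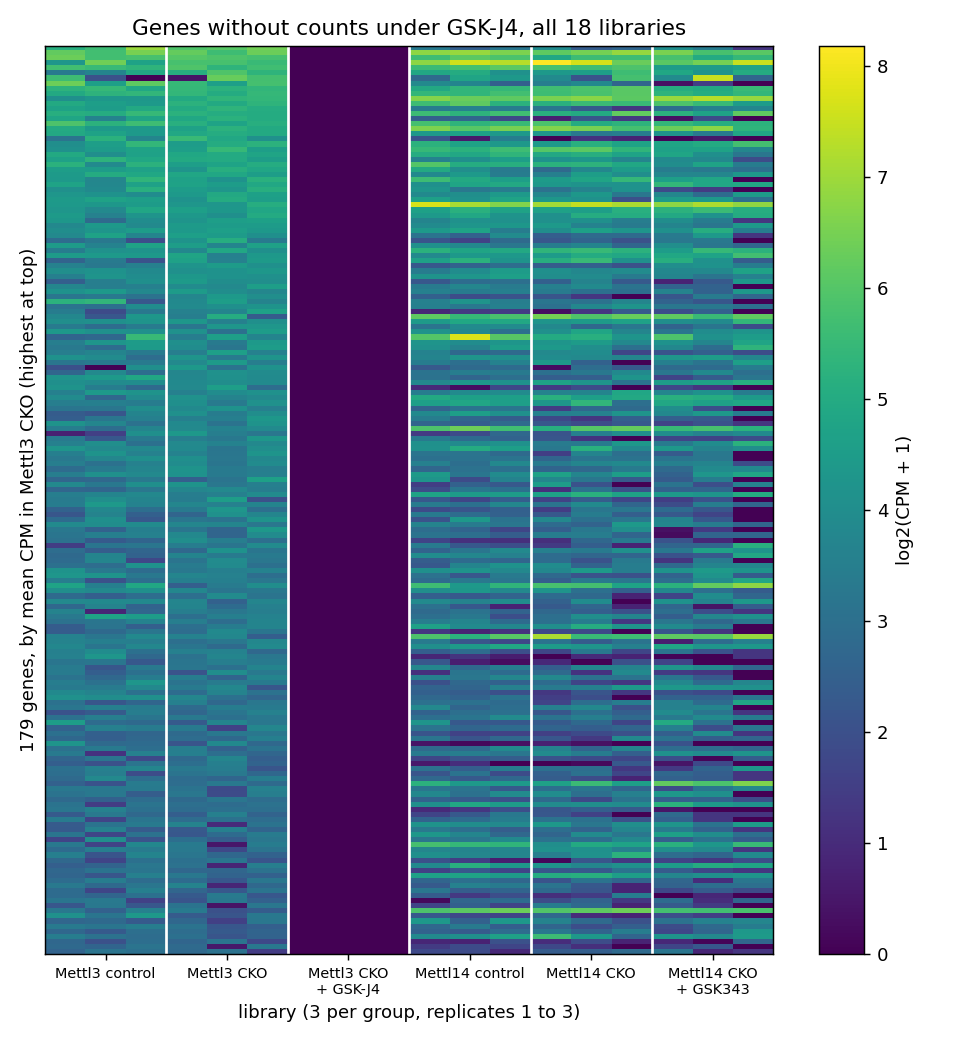
Level of each of the 179 genes (rows, highest mean in Mettl3 CKO at the top) in each of the 18 libraries (columns, 3 per group), as log2(CPM + 1). The 3 GSK-J4 columns are at 0 by the way the genes were chosen, and the 40 dark cells in the last column belong to the library of 721853 counts.

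Missing counts were not limited to the lowest levels. Over the summed GSK-J4 libraries 8.19% of genes at 5 to 10 CPM had 0 counts, 2.86% at 10 to 20 CPM, 0.854% at 20 to 50 CPM and 0.1% at 50 CPM and over. The 3 Mettl14 CKO libraries, with 16970870 counts in sum, had 0 of the 9980 genes at 0. The 3 GSK343 libraries had 1. With the same rule moved to the Mettl14 line, 0 of 9761 genes had at least 5 CPM in control and CKO and no count with GSK343.

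**Figure D2:**
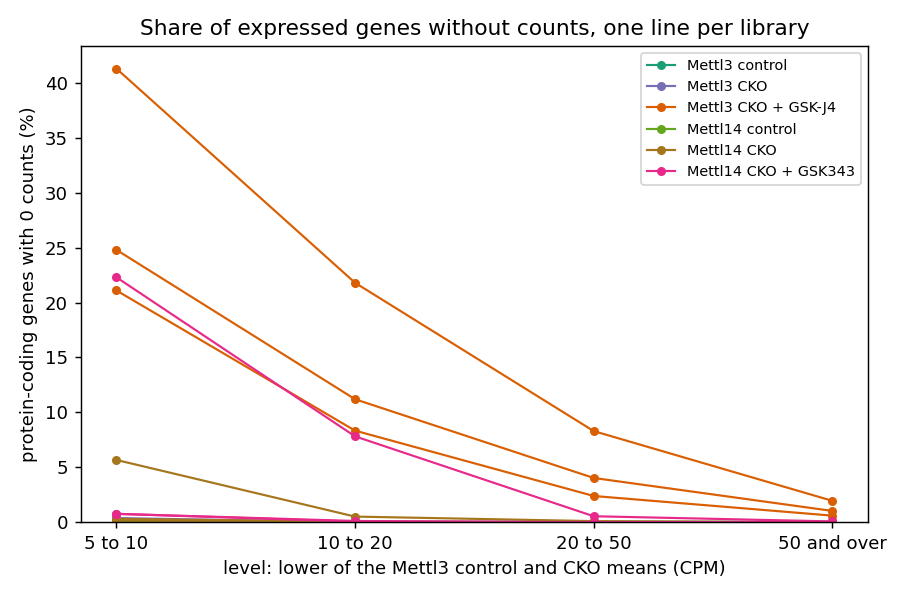
Share of the 9980 expressed protein-coding genes with 0 counts (vertical axis, percent) by their level in the Mettl3 line (horizontal axis, CPM), one line per library. At 5 to 10 CPM the GSK-J4 libraries reached 21.1 to 41.3%, and the GSK343 library with 721853 counts reached 22.3%.

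Each GSK-J4 library was also read for the genes at 0 in the other 2. Those at 0 in the third as well are always the 179 members. The shares below therefore restate the rule as a description and are no separate test. The shares of all expressed genes beside them are not matched for level. When GSK-J4 replicates 2 and 3 chose them, 323 genes qualified, and 179 of these (55.4%) had 0 counts in replicate 1, where 6.8% of the expressed genes did. Replicates 1 and 3 chose 373 genes, of which 48.0% were at 0 in replicate 2, against 5.17% of the expressed genes. Replicates 1 and 2 chose 232 genes, of which 77.2% were at 0 in replicate 3, against 12.4%. Of the 179 members 102 were at 5 to 10 CPM, and among all genes at that level the shares at 0 were 24.8, 21.1 and 41.3% in replicates 1, 2 and 3. The held-out library could also be high, since 39, 41 and 18 of the chosen genes were at or above their CKO mean in it.

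Single GSK-J4 libraries therefore differed in which genes they lacked. Of the 9980 expressed genes, 1087 (10.9%) had 0 counts in 1 of the 3 libraries and 396 (3.97%) in 2. Among those 396 genes, 101 (25.5%) were at or above the CKO mean in the remaining library. Brinp1 had 106 counts (31.2 CPM) in replicate 1 and none in the others, at a CKO mean of 22.7 CPM. Rab2b had 283 counts (34.1 CPM) in replicate 2 alone, at a CKO mean of 25.1, and Ociad2 had 151 counts (31.1 CPM) in replicate 3 alone, at 27.9. These genes were named for their high count in 1 library after their values were seen.

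Within the Mettl3 line without inhibitor the members were moderately expressed. Their median level was 10.3 CPM in control and 11.8 CPM in CKO, against 40.8 and 41.9 CPM for the other 9801 expressed genes. None was at 0 in any of the 6 libraries, and 170 had at least 1 CPM in each of them. Their levels varied more between replicates than those of the other genes, with a median coefficient of variation of 0.341 in control and 0.335 in CKO against 0.167 and 0.177. The other genes were not matched for level in this comparison. The CKO mean was above the control mean for 109 of the 179 members and for 5112 of the 9801 others, with median ratios of 1.1 and 1.01.

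Matrix proteins numbered 13 (Aspn, Spon1, Dmp1, Prelp, Podn, Dpt, Prg4, Mfap4, Nell1, Thsd4, Comp, Ogn and Hapln4), at 6.23 to 70.4 CPM in Mettl3 CKO. Aspn encodes asporin, a small leucine-rich proteoglycan that binds collagen. It had 35.0, 47.8 and 122 CPM in control and 59.5, 65.2 and 86.6 in CKO, so that these groups overlapped. Spon1 encodes F-spondin, a secreted matrix-attached adhesion protein, and had 81.8, 23.3 and 70.1 CPM in control and 43.2, 23.7 and 53.3 in CKO. Of 8 leucine-rich proteoglycans at the CPM minimum, 4 were members (Aspn, Prelp, Podn and Ogn), and for all 8 the GSK-J4 mean was below 0.5 of the CKO mean, as it was for 2047 of the 9980 expressed genes. Podn, another of them, had 10.96, 8.58 and 10.8 CPM in control and 17.8, 21.7 and 16.4 in CKO. Prelp had 6.48, 8.78 and 2.83 CPM in control and 17.4, 33.0 and 9.42 in CKO. The other proteoglycans kept counts, with GSK-J4 and CKO means of 0.589 and 273 CPM for Fmod, 0.32 and 26.7 for Lum, 11.1 and 132 for Dcn and 907 and 3708 for Bgn.

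Of 33 matricellular and elastic-fibre genes, the microfibril protein Mfap4 and the cartilage protein Comp were members. Mfap4 had 10.3, 16.4 and 13.4 CPM in control and 16.9, 9.06 and 10.7 in CKO. Comp had 17.6, 6.17 and 6.21 CPM in control and 3.50, 13.7 and 5.73 in CKO. Both genes overlapped between these groups.

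Genes of the osteoblast list made up 3 of 8 at the minimum. Dmp1, a mineral-binding matrix protein of osteocytes, had 7.77, 36.8 and 12.3 CPM in control and 46.0, 29.0 and 16.4 in CKO. Sp7 (osterix), the transcription factor that commits cells to the osteoblast lineage, had 17.3, 12.5 and 7.43 CPM in control and 13.7, 7.75 and 17.4 in CKO. Pth1r, the receptor for parathyroid hormone, had 13.2, 19.9 and 13.4 CPM in control and 21.1, 21.7 and 21.3 in CKO. Runx2, which acts upstream of Sp7, kept a mean of 45.2 CPM with GSK-J4 against 65.5 in CKO.

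Secreted signals and carriers numbered 12 (Npy, C1qtnf6, Igf1, Gdf10, Adcyap1, Nmu, Rbp4, Ccl11, Bmp5, Draxin, Tac1 and Chrd), at 5.05 to 51.4 CPM in CKO. Npy encodes neuropeptide Y, a peptide of neurons and neural crest derivatives, and had 18.7, 84.4 and 25.1 CPM in control and 54.2, 54.7 and 45.4 in CKO. Per kilobase of exon Npy was the highest member, at 90.8 CPM per kilobase in CKO, followed by Lyz2 at 32.6 and Aspn at 29.9. C1qtnf6, a secreted protein of the C1q and TNF-related family, had 50.8, 45.5 and 39.3 CPM in control and 60.3, 39.4 and 49.5 in CKO. The growth factor Igf1 had 36.4, 14.1 and 37.0 CPM in control and 23.1, 25.9 and 32.6 in CKO, and was the 1 member among 12 insulin-like growth factor genes at the minimum. Its binding protein Igfbp5 kept 8.53 CPM with GSK-J4 against 1514 in CKO. Of the 12 genes, 7 had a GSK-J4 mean below 0.5 of the CKO mean, as did 2047 of the 9980 expressed genes. Others of the list were not lower, such as Igf1r at 198 CPM with GSK-J4 against 183 in CKO and Igf2bp1 at 72.4 against 43.2.

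Of 40 BMP and TGF-beta genes, the ligands Gdf10 and Bmp5 and the BMP antagonist Chrd were members (7.5%, against 1.86% of all expressed genes at 0). With GSK-J4, 23 of the 40 had a mean below 0.5 of the CKO mean and 1 a mean above 2 times it. Of the 9980 expressed genes 2047 and 1254 did. The 1 gene above was Smad7, at 251 CPM with GSK-J4 against 112 in CKO. Gdf10 had 8.97, 6.44 and 20.96 CPM in control and 14.6, 8.27 and 22.1 in CKO. Bmp5 had 11.6, 10.5 and 10.2 CPM in control and 6.95, 8.44 and 12.9 in CKO. Control and CKO overlapped for both ligands. Single members came from the retinoid list (Rbp4, the retinol carrier, 1 of 12), the chemokine list (Ccl11, eotaxin, 1 of 22), the complement list (C1qtnf6, 1 of 8) and the axon guidance list (Draxin, a repulsive guidance protein, 1 of 45). Ccl11 was lower in CKO than in control on average, at 9.83 ± 5.29 against 21.5 ± 9.56 CPM (SD, n = 3), with overlapping libraries.

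Receptors numbered 18 (among them Selp, Cmklr1, Clec14a, Pth1r, Vsir, Nod1, F2rl2, Avpr1a, Fgfr3, Ptprb, Paqr7, Mrgprf, Cxcr6, Gper1, Grin2d, Cd1d1 and Agtr2), at 5.41 to 40.0 CPM in CKO. Selp encodes P-selectin, an adhesion receptor of platelets and activated endothelium, and was steady at 38.0, 43.6 and 29.2 CPM in control and 42.4, 37.1 and 40.6 in CKO. Fgfr3, a fibroblast growth factor receptor of the growth plate, was the 1 member among 40 receptor tyrosine kinases and ligands. It had 4.49, 8.24 and 10.8 CPM in control and 10.6, 10.5 and 18.9 in CKO. Adhesion and polarity genes numbered 10 (Lrrc15, Pcdhgc5, Vangl2, Itga7, Clstn2, Mcam, Lrrn2, Pcdhga9, Slitrk5 and Itga4), and 4 of the 41 genes of the cell adhesion list were members (Lrrc15, Itga7, Mcam and Itga4). Lrrc15, a membrane protein of TGF-beta-activated fibroblasts, had 79.9, 51.4 and 55.3 CPM in control and 64.3, 58.2 and 53.0 in CKO. The integrin chains Itga7, which binds laminin, and Itga4 had CKO means of 14.9 ± 4.98 and 6.51 ± 2.98 CPM (SD, n = 3).

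Proteases and their inhibitors numbered 6 (Bace2, Adamts12, Fap, Pi15, Lvrn and Prss35), at 8.18 to 38.9 CPM in CKO. Bace2, an aspartyl protease, had 30.4, 38.2 and 40.5 CPM in control and 41.9, 31.9 and 42.9 in CKO. Fap, a serine protease of activated fibroblasts, had 16.3, 13.9 and 35.1 CPM in control and 21.9, 18.8 and 33.9 in CKO. Adamts12 was the 1 member among 23 metalloproteinases and their inhibitors at the minimum.

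Transcription and chromatin genes numbered 13 (Arnt2, Alx4, Tle2, Ahrr, Zim1, Sox10, Sp7, Mdfi, Taf9b, Tle6, Zfp182, Smarca1 and Bcl3), at 6.93 to 35.8 CPM in CKO. Alx4 and Sox10 were the 2 members among 39 neural crest and mesenchyme factors (5.13%, against 1.86% of all expressed genes at 0). With GSK-J4, 17 of the 39 had a mean below 0.5 of the CKO mean and 3 a mean above 2 times it. Of the 9980 expressed genes 2047 and 1254 did. Tfap2a, for one, had a mean of 22.1 CPM with GSK-J4 against 8.03 in CKO, and Foxc1 35.4 against 44.6. Alx4, a homeodomain factor of craniofacial mesenchyme, had 29.6, 25.3 and 19.9 CPM in control and 28.7, 32.8 and 30.6 in CKO. Sox10, a factor of neural crest and glia, was uneven, with 2.96, 0.0339 and 15.8 CPM in control and 19.6, 7.70 and 17.1 in CKO.

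Metabolic and sugar-transfer enzymes and lipid droplet genes numbered 23 (Lyz2, Cyp7b1, Hibadh, Hpgd, Cyp1a1, Hacd4, Lpin3, Btd, Pank1, Cnp, Aldh3a1, Galnt3, B3galt1, Xylb, Plin4, Galnt18, Fabp4, Dio2, Hs3st1, Msrb2, Qpct, A4galt and G0s2). Lyz2, the lysozyme of macrophages, had 48.7, 3.05 and 0.0349 CPM in control and 0.338, 76.0 and 52.2 in CKO, so that 1 or 2 libraries carried each mean. Summed CPM of 14 macrophage and blood markers was 16.9 to 100 in CKO and 17.7 to 89.1 with GSK-J4. Single markers of that list went both ways. Csf1r had a mean of 0.0687 CPM with GSK-J4 against 3.18 in CKO and Tyrobp 0 against 1.19, while Cd68 had 24.2 against 7.88 and Ptprc 10.9 against 0.184. Adgre1 and C1qc were at 0 in both groups. Their part in the missing Lyz2 counts was not tested.

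Cytoskeletal and membrane scaffold genes numbered 15 (Eml1, Cavin3, Myzap, Hspb7, Ctnnal1, Cap2, Coro6, Coro2b, Pgm5, Kank4, Sync, Pdlim2, Myl9, Dpysl4 and Tubd1). Eml1, a microtubule-binding protein, had 72.8, 51.4 and 89.8 CPM in control and 75.8, 48.6 and 79.4 in CKO. Myl9, a myosin light chain of smooth muscle and the 1 member among 9 contractile genes, had 16.5, 15.1 and 16.2 CPM in control and 12.3, 7.18 and 5.56 in CKO. Intracellular signalling genes numbered 11 (among them Plekhg1, Brsk1, Stac, Rap1gap, Rgs5, Bok, Afap1l2, Tifa, Plek and Pde8b). Plekhg1, an exchange factor for small GTPases, had 9.02, 11.9 and 29.1 CPM in control and 34.3, 59.2 and 38.7 in CKO.

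Channels, transporters and genes of vesicle release numbered 13 (Gpm6b, Syndig1, Slc2a10, Fgf13, Slc22a23, Sec16b, Slc5a7, Doc2b, Fxyd6, Kcnk3, Cabp1, Syt12 and Ap5b1). No class was assigned to the remaining 45, at 5.08 to 34.1 CPM in CKO. The classes were assigned after the members were known. The lists of hedgehog and Notch (15 genes at the minimum), interferon response (20), immediate early (29), cell cycle (16), basement membrane (11), collagen enzyme (22) and metallothionein and zinc genes (6) held 0 members, which at the overall share of 1.86% is close to what lists of that size would hold.

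Most of these genes were also expressed in the Mettl14 line. In its controls 176 members (98.3%) had a mean of at least 1 CPM. A mean of 5 CPM was reached by 142 members (79.3%, against 97.7%) in control, 131 (73.2%, against 96.5%) in CKO and 127 (70.9%, against 96.4% of the other expressed genes) with GSK343. None was at 0 over the 9 libraries. Median levels were 9.89 CPM in control, 9.34 in CKO and 9.69 with GSK343, against 40.0, 37.6 and 39.5 CPM for the other expressed genes. The library with 721853 counts lacked 40 members (22.3%) and 4.15% of the other expressed genes, and the one with 1303697 counts lacked 11 (6.15%) and 0.765%. The remaining 7 libraries of the line lacked 0 to 4 members each.

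**Figure D3:**
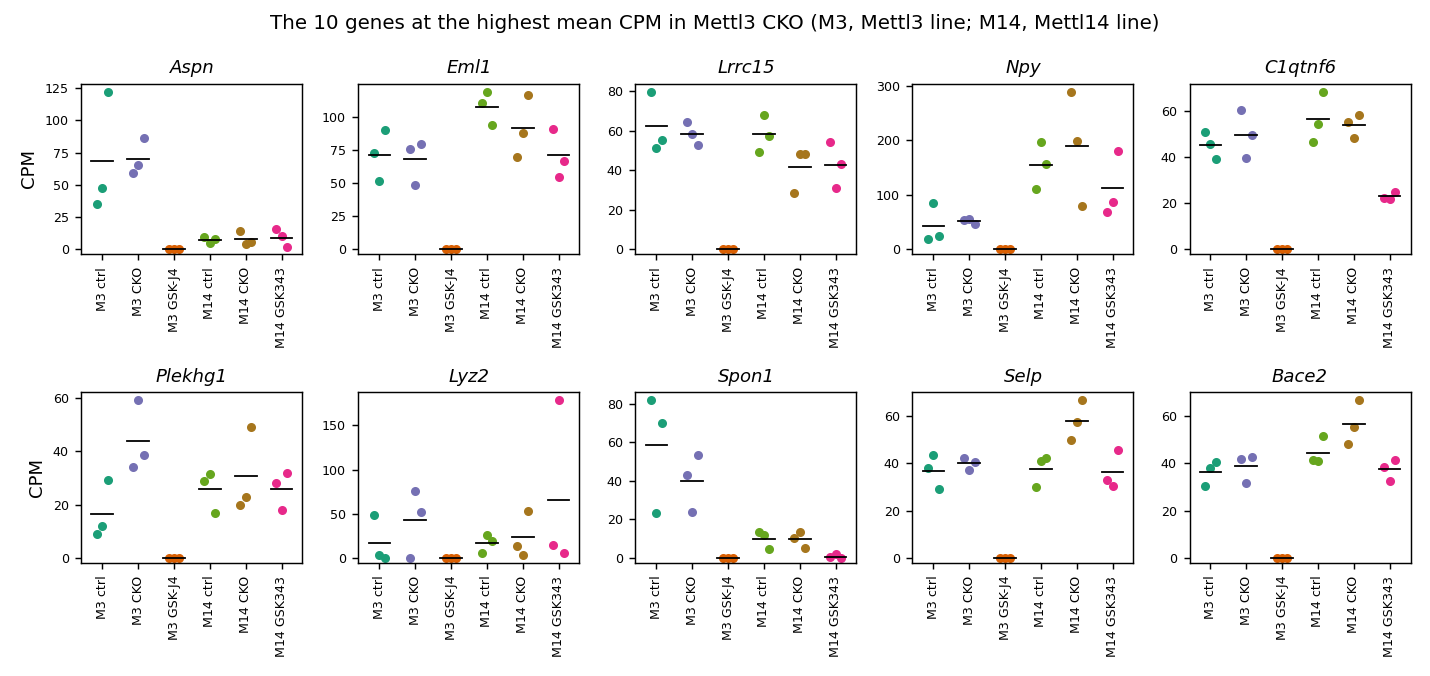
CPM in every library (points, replicates 1 to 3 from left to right) and group mean (bar) for the 10 members with the highest mean in Mettl3 CKO, each panel on its own vertical axis starting at 0. C1qtnf6 with GSK343 lies between 21.6 and 24.9 CPM, under the other Mettl14-line libraries at 46.6 to 68.4.

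By class, the enzymes and the cytoskeletal genes were the most completely present in the Mettl14 controls, where all 23 and all 15 reached 5 CPM. Of the matrix proteins 8 of 13 did, with a median of 6.85 CPM, and of the receptors 14 of 18, with a median of 10.8. Of the secreted signals 10 of 12 did, with a median of 15.6 CPM. Transcription and chromatin genes reached it in 11 of 13 and unassigned genes in 29 of 45.

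Levels in the controls of the 2 lines were alike in the middle and spread at both ends. The median ratio of the Mettl14 to the Mettl3 control mean was 0.967, against 0.955 for the other expressed genes. Over 2 times higher in the Mettl14 controls were 26 members (14.5%, against 2.24% of the others), and over 2 times lower were 36 (20.1%, against 2.47%). The others are not matched for level or spread. In the Mettl3 controls members had a median of 10.3 CPM against 40.8, and a median coefficient of variation of 0.341 against 0.167. The Mettl3 control mean also entered the rule, so these shares are a description. The lines were not tested against each other.

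A4galt, which makes globo-series glycolipids, had the highest ratio. It had 59.0, 68.6 and 79.4 CPM in the Mettl14 controls against 8.65, 4.81 and 10.9 in the Mettl3 controls. Pi15, a peptidase inhibitor, had 203, 136 and 97.7 CPM against 20.3, 18.9 and 21.3, and Clstn2, a calsyntenin of synapses, 57.9, 82.3 and 49.97 against 10.1, 6.54 and 12.1. These genes were named for the highest ratios, so the gap between their groups is part of that choice. At the other end, Comp had 0.362, 0.120 and 0.292 CPM in the Mettl14 controls, Fxyd6, a regulator of the sodium pump, 0.845, 1.32 and 0.583, and the proteoglycan Ogn 0.483, 1.08 and 0. Aspn, the highest member in the Mettl3 line, had 9.17, 4.57 and 8.17 CPM, a ratio of 0.107.

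**Figure D4:**
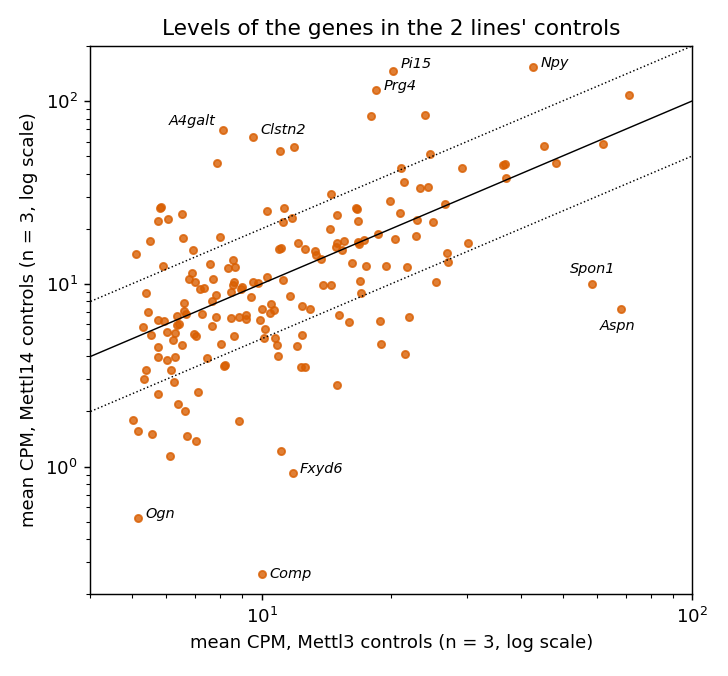
Mean CPM of the 179 genes in the Mettl3 controls (horizontal) and the Mettl14 controls (vertical), both on log scales and over 3 libraries. The solid line marks equal levels and the dotted lines a ratio of 2 either way, with 26 genes above and 36 below them.

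The libraries of the Mettl14 line were not among those that the selection rule used. How many of all tested genes had groups without overlap was not counted, so such remarks below only describe single genes. Of 179 members 176 were tested, and Ogn, Comp and Fxyd6 fell under the low-count filter. Between Mettl14 CKO and control edgeR's quasi-likelihood test called 0 members and 0 of 13882 genes (0.0%) at an adjusted p of 0.05. At an unadjusted p under 0.05 were 6 members (3.41%) and 1.5% of the tested genes, and DESeq2 also called 0. The median log2 fold change was 0.031 for members and 0.0141 over all genes. Prg4, which encodes the joint lubricant lubricin, had the smallest p. It had 62.6, 214 and 65.5 CPM in control and 31.0, 34.8 and 17.6 in CKO, without overlap (log2 fold change -1.90 ± 0.47 SE, edgeR adjusted p = 1.0). With no low-count filter edgeR called it (adjusted p = 2.04e-06), as it did 0.0584% of genes.

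With GSK343 against Mettl14 CKO, the comparison with an EZH2 inhibitor, edgeR called 0 members, and 4 of 13882 genes (0.0288%). All 4 called genes were higher with GSK343. At an unadjusted p under 0.05 were 23 members (13.1%), 19 lower and 4 higher, against 5.74% of the tested genes and 5.35% of the expressed genes. The split by direction at that p is not given for all genes. At any p, the log2 fold change was negative for 59.7% of the tested members and 53.4% of the expressed genes. The median log2 fold change of members was -0.157, against -0.0346 over all genes. The smallest adjusted p of a member was 0.128. DESeq2 called 5 members (Fap, C1qtnf6, Lvrn, Spon1 and Prr9) and 0.404% of genes, and edgeR with no low-count filter called 5 (Fap, C1qtnf6, Spon1, Prr9 and Lyz2) and 0.195%.

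C1qtnf6 was the most even of these. It had 46.6, 54.4 and 68.4 CPM in the Mettl14 controls, 55.1, 48.4 and 58.3 in CKO and 22.2, 21.6 and 24.9 with GSK343. The GSK343 libraries were below the other 6 without overlap, with a log2 fold change of -1.36 ± 0.29 (SE) against CKO and an edgeR adjusted p of 0.128. Spon1 had 13.4, 11.9 and 4.67 CPM in control, 10.2, 13.5 and 5.37 in CKO and 0.29, 1.86 and 0 with GSK343. Against CKO this was a log2 fold change of -3.48 ± 0.81, with an adjusted p of 0.186 by edgeR and 0.00811 by DESeq2. Fap had 18.2, 8.67 and 9.92 CPM in control, 7.48, 11.6 and 16.9 in CKO and 2.61, 1.68 and 0 with GSK343, again without overlap. Against CKO Fap had a log2 fold change of -2.71 ± 0.64, with an adjusted p of 0.202 by edgeR and 0.0121 by DESeq2. The values at 0 come from the library of 721853 counts, where 3 counts correspond to 4.16 CPM.

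Prr9 had 64.0, 68.6 and 39.9 CPM in CKO and 24.9, 25.4 and 12.5 with GSK343, a log2 fold change of -1.48 ± 0.31 (edgeR adjusted p = 0.128). Lvrn, an aminopeptidase, had 4.49, 8.74 and 15.3 CPM in CKO and 0.29, 1.59 and 0 with GSK343. Lyz2 had 14.4, 178 and 5.54 CPM under GSK343, with 1 library far above the other 2.

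Against Mettl14 control, GSK343 libraries gave 0 called members and 23 called genes (0.166%) by edgeR. Both contrasts use the same GSK343 libraries. Of the 23 called genes 21 were higher with GSK343. At an unadjusted p under 0.05 were 22 members (12.5%), 14 lower and 8 higher, against 4.34% of the tested genes and 3.96% of the expressed genes. At any p, the log2 fold change was negative for 55.7% of the tested members and 53.2% of the expressed genes. C1qtnf6 had the smallest adjusted p by edgeR, 0.0796, at a log2 fold change of -1.32 ± 0.29, and was called (0.0423) when the 2 shallowest libraries were left out. Dio2, the deiodinase that activates thyroid hormone, had 37.0, 20.1 and 20.4 CPM in control, 24.5, 47.1 and 23.01 in CKO and 73.6, 56.65 and 95.6 with GSK343. Against control this was a log2 fold change of 1.53 ± 0.34 (edgeR adjusted p = 0.0992), and the GSK343 libraries were above the other 6. DESeq2 called Fap, Dio2, C1qtnf6 and Spon1 here and 0.505% of genes, and edgeR with no low-count filter called 6 members (Fap, Prg4, Dio2, C1qtnf6, Spon1 and Lyz2) and 0.245%.

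With all 9 libraries and its low-count filter, edgeR called 0 members in either contrast with GSK343, those described above included. Values of other members follow, several of them at a high level in the Mettl3 line. Eml1 had 110, 119 and 93.5 CPM in Mettl14 control, 69.5, 87.8 and 117 in CKO and 91.1, 54.6 and 66.5 with GSK343. Lrrc15 had 49.2, 68.1 and 57.6, then 28.5, 48.1 and 48.3, then 54.1, 31.2 and 43.0 CPM in the same order. The GSK343 libraries lay below control for Eml1 and the CKO libraries below control for Lrrc15, while CKO and GSK343 overlapped for both. Npy was more abundant in this line and uneven, with 110, 196 and 157 CPM in control, 289, 198 and 79.0 in CKO and 67.6, 87.1 and 180 with GSK343. Igf1 had 62.1, 32.1 and 34.0 CPM in control, 36.7, 38.1 and 28.4 in CKO and 15.1, 25.7 and 9.70 with GSK343, below both without overlap (edgeR adjusted p = 0.635 against CKO). Podn had 4.37, 4.73 and 3.07 CPM in CKO and 15.4, 16.9 and 9.70 with GSK343, where the higher values did not overlap (edgeR adjusted p = 0.591). Dmp1 had 3.38, 0.481 and 10.1 CPM in control, 0, 1.29 and 0.767 in CKO and 0.0483, 0.443 and 0 with GSK343. It was thus already low in CKO, where its libraries overlapped those with GSK343.

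In the genome the members were spread. Those on chromosome X numbered 12 (6.7%), against 3.12% of the other expressed genes. The median summed exon length was 4100 bases, against 4842 for the others, which were not matched for level. Among genes at 5 to 10 CPM it was 3997 against 4307 bases, and at 10 to 20 CPM 3625 against 4335. Aspn (chromosome 13, 49544443 to 49567565) and Ogn (49608046 to 49624501) are neighbours on the plus strand, 40.5 kilobases apart. Tle2 and Tle6, which encode corepressors of the Groucho family, lie 58 bases apart on chromosome 10, and Slfn9 and Slfn2 lie 73.3 kilobases apart on chromosome 11. Pcdhga9 and Pcdhgc5 overlap and share exons, so their counts cannot be assigned with certainty, and those of Lyz2, Ly6c1, Slfn2 and Slfn9 may be split with close relatives. Spans of 97 members (54.2%) overlapped another annotated gene, against 55.2% of the others, and without the strand setting of the counting the reads of such pairs cannot be told apart.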

How the data were processed

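The authors deposited raw counts per gene for each of 18 libraries of poly(A) RNA, prepared per the labels' protocols with a stranded SMARTer v2 kit. Reads went through CASAVA, Trimmomatic 0.38, HISAT2 2.1.0 on mm10 and HTSeq, per the submitters' processing notes. The gene annotation, like HTSeq's strand option, is not given in the sources used here. Of 54446 identifiers 54409 matched GENCODE mouse release M21, the source of symbols, biotypes and coordinates.

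The rest was computed here. Groups came from the labels, and CPM is plain, from each library's total count, except in the fits. One edgeR 4.0.16 model (R 4.3.3) covered the 9 Mettl14-line libraries (filterByExpr, TMM, quasi-likelihood F test), with Benjamini-Hochberg adjustment over all tested genes and a threshold of 0.05. The test was tried on simulated data first. Depth ran from 721853 to 32540164 counts, so that 3 counts in 1 library are 0.0922 to 4.16 CPM. The rule names the Wnt, collagen and HOX families but lists no symbols, so the symbols left out were chosen here, and leaving out every family list would give 162 members. The members and the 32 lists were chosen with earlier results of these data known. Named genes are the 10 members highest in Mettl3 CKO, up to 4 per list, those at the ends of the ratio between lines, those at the limits of the rule, and Mettl3 and Mettl14. Genes of the contrasts with small p, other list genes and the single-library examples were named after their values were seen. Some members are not reported here by name, though counts include them. Other settings were a replicate block, RLE scaling, DESeq2 1.42.0, a fit of all genes with a count, other limits of the rule and leaving out each library. Omission of the 2 shallowest libraries was added after the data were seen. Figures used Python 3.11.15 and matplotlib 3.10.9.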

Additional observations from a re-analysis of the deposited data

How the results depend on the processing

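The number of members was 77 at a minimum of 10 CPM and 342 at 2 CPM. It was 169 to 373 when single Mettl3-line libraries were left out, with 323, 373 and 232 without GSK-J4 replicates 1, 2 and 3. TMM scaling, up to 3 counts with GSK-J4, no family left out and every family list left out gave 162 to 202. At a minimum of 10 CPM, 77 members had at least 1 CPM in the Mettl14 controls, at a median of 16.7 CPM. Without single control libraries these values were 174 to 176 and 9.64 to 10.5 CPM.

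For Mettl14 CKO against control, no low-count filter called 15 genes and 1 member, and leaving out single libraries called 0 to 7 genes, 7 without CKO replicate 1 and 1 without CKO replicate 2. For GSK343 against CKO, DESeq2 called 56 genes and 5 members, RLE 1 gene, no filter 50 genes and 5 members, omission of the 2 shallowest libraries 2 genes, and leaving out single libraries 0 to 14. It was 14 without CKO replicate 1, and 0 without CKO replicate 2, CKO replicate 3 or GSK343 replicate 1. For GSK343 against control, DESeq2 called 70 genes and 4 members, no filter 63 and 6, omission of the 2 shallowest 37 and 1, and leaving out single libraries 4 to 28 genes. Leaving out control replicates 1, 2 and 3 gave 7, 4 and 13, and leaving out GSK343 replicates 1 and 2 gave 4 and 9. Leaving out single libraries of the groups compared called 0 members in each contrast. The cause of these shifts was not tested.

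Replicate numbers did not pair the Mettl14-line libraries, since same-numbered libraries correlated at -0.12 to 0.102. With the replicate block, 0, 1 and 18 genes were called in the 3 contrasts, and 0 members. Depth limits the 2 shallowest libraries, where 3 counts are 2.3 and 4.16 CPM.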
